A study of Homo sapiens with 12 samples.

Results

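The comparison described here is that between 2 human uveal melanoma cell lines, OCM1 and MUM2B, while both overexpressed the long noncoding RNA CANT1. Uveal melanoma is a tumour of the pigment cells of the eye. The members were chosen by label: the 3 OCM1 and 3 MUM2B arrays taken as CANT1 overexpressing. They are 6 of the 12 Affymetrix PrimeView arrays of the study, each measuring total RNA of 1 cell sample. The other 6 arrays are wild type OCM1 and MUM2B cells, again 3 of each, and serve only for reference. CANT1 here is a new transcript of the CASC15 locus (CASC15-NT1) and not the nucleotidase gene of the same symbol. The labels give neither the vector nor a clone number, and no empty vector is described for the controls. Sample titles name CANT1 or wild type for replicate 1 only. Those of replicates 2 and 3 give the line, with a number code added on the arrays taken as CANT1. For replicate 1 the labels describe CANT1 cells selected with puromycin, and for replicates 2 and 3 they name only medium with serum. Each line thus contributes 1 array to the first labelled set and 2 to the other. The labels do not say that replicates came from separate cultures, so the p-values here reflect no more than how far these arrays vary, possibly for technical reasons.

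Pigment cells are specified by the transcription factors MITF, SOX10 and PAX3. MITF binds short E-box motifs in the promoters of genes for melanin synthesis and for the melanosome, the organelle in which melanin is made. Melanoma cells that have lost this programme often carry AXL, EGFR, AP-1 factors and cytokines in its place, a condition called dedifferentiated. CASC15 is a locus linked to melanoma and neuroblastoma in which several noncoding transcripts begin.

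Levels are given as log2 of the array signal, scaled to a common mean, plus 32. A level of 7.04 corresponds to a signal of 100, below which a probe set was treated as dim. Differences are OCM1 minus MUM2B on that scale, ± standard error, from a linear model (limma) with the labelled set as a term. The scale understates the fold of genes that are dim in 1 line. "Called" means a Benjamini-Hochberg adjusted p below 0.05 over 12071 genes. Where 3 levels are listed, they are replicates 1, 2 and 3, in that order.

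The array's 1 probe set for CASC15 had a signal of 13.4 to 17.9 on the 6 CANT1 arrays and 12.9 to 16.7 on the wild type arrays, all far below 100; whether it reads the CASC15-NT1 transcript is not known here, so it does not check the overexpression. Every CANT1 array was nearer to its own line than to the other. Arrays of the same line correlated across genes at 0.961 to 0.994 in MUM2B and 0.949 to 0.995 in OCM1, against 0.736 to 0.783 between the lines. Replicates 2 and 3 of a line correlated at 0.994 to 0.995, so the lower values were pairs with replicate 1. The ratio of 3′ to 5′ signal of the actin control probe sets, a measure of RNA integrity, was 2.15 in MUM2B and 2.30 in OCM1 on replicate 1 (log2). On the others it was 0.526 and 0.584 in MUM2B against 0.911 and 0.845 in OCM1. It was thus higher on replicate 1 in both lines, and higher in OCM1 in both sets. Its part in the differences between lines or sets was not tested. Of 9 melanocytic markers measured, 5 (MLANA, TYRP1, S100B, GPR143 and EDNRB) had a signal below 100 on all 3 MUM2B arrays, where the summed signal of the 9 was 728 to 825. In OCM1 none was below 100 on all arrays and the sum was 79856 to 89535. The remaining 4 (MITF, SOX10, PMEL and TYR) had signals of 102 to 172 in MUM2B, so the markers that define the labelled tumour type were at or near background in that line. Markers of the retinal pigment epithelium, another pigmented layer of the eye, summed to 253 to 469 in MUM2B and 1009 to 1190 in OCM1, with its defining gene RPE65 below 100 on all 6 arrays, and their part in the pigment gene differences was not tested. The immune marker PTPRC stood at 14.2 to 18 on the 6 arrays, and 5 of 7 immune markers and 5 of 7 fibroblast markers were below 100 on all of them. The remaining fibroblast markers separated the lines in opposite directions. LUM stood at 1222 to 1437 in OCM1 and at most 37.4 in MUM2B, and FAP at 232 to 379 in MUM2B and at most 48.2 in OCM1. The fibroblast markers summed to 474 to 669 in MUM2B and 1530 to 1740 in OCM1. Because each sample is bulk RNA, fewer cells of a kind and less RNA per cell cannot be told apart.

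With CANT1 in both lines, 7144 of 12071 genes (59.2%) were called different between OCM1 and MUM2B. Of these, 3980 (33.0%) were higher in OCM1 and 3164 (26.2%) lower. A difference of at least 1 on the log2 scale, that is 2-fold, was reached by 1441 genes higher in OCM1 (11.9%) and 1170 lower (9.69%). At 4 or more there were 97 and 113 genes, and at 6 or more 9 and 19. The 3 arrays of each line did not overlap for 6394 genes (53.0% of those tested), 5845 of them called. Among the called genes, 7086 (99.2%) had the same sign on replicate 1 and on the mean of replicates 2 and 3. With a majority of genes called, a share of called members in a gene list is read below against these percentages. Genes were tested when 3 or more of the 6 CANT1 arrays reached a signal of 100. A gene dim on all arrays of 1 line thus entered only through the other line, where it is high. The share called among tested members is therefore partly set by this filter.

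Pigment genes were among the largest differences toward OCM1, and MLANA, PMEL, TYRP1 and TYR were in the first 15. Of 20 tested genes for melanosome proteins, melanin enzymes and melanosome transport, 17 were higher in OCM1 (85.0%, against 33.0% of all genes), 0 were lower, and the list median was 2.48 against 0.09 for all genes. MLANA, which encodes the melanosome protein MART-1, lay at 6.11, 6.15 and 6.35 in MUM2B and 13.99, 13.77 and 13.72 in OCM1, a difference of 7.62 ± 0.12, adjusted p = 1.51e-08. PMEL, whose product forms the fibrils on which melanin is laid down, lay at 7.28, 7.63 and 7.60 in MUM2B and 14.51, 14.86 and 14.94 in OCM1, a difference of 7.27 ± 0.088, adjusted p = 8.95e-09. In both genes the MUM2B arrays were in or near the dim range and the OCM1 arrays were bright. Tyrosinase (TYR), the enzyme that starts melanin synthesis, lay at 7.47, 7.30 and 7.06 in MUM2B and 13.49, 13.86 and 13.92 in OCM1, a difference of 6.48 ± 0.15, adjusted p = 3.94e-08. TYRP1, a related melanin enzyme, lay at 5.71, 5.67 and 5.71 in MUM2B and 13.98, 11.40 and 11.90 in OCM1, a difference of 6.73 ± 0.42, adjusted p = 4.63e-06. All TYRP1 arrays of OCM1 were above all of MUM2B, but the OCM1 arrays themselves were spread, with replicate 1 well above the other two. GPR143, a melanosome receptor, differed by 5.32 ± 0.11, and the melanosome transporter SLC45A2 by 4.75 ± 0.24. The 3 tested members that were not called were RAB32 (−0.13 ± 0.18, adjusted p = 0.565), MLPH (0.29 ± 0.29, adjusted p = 0.419) and SYTL2 (−0.04 ± 0.64, adjusted p = 0.963). The SYTL2 difference was −2.51 on replicate 1 and 1.20 on replicates 2 and 3.

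**Figure D1:**
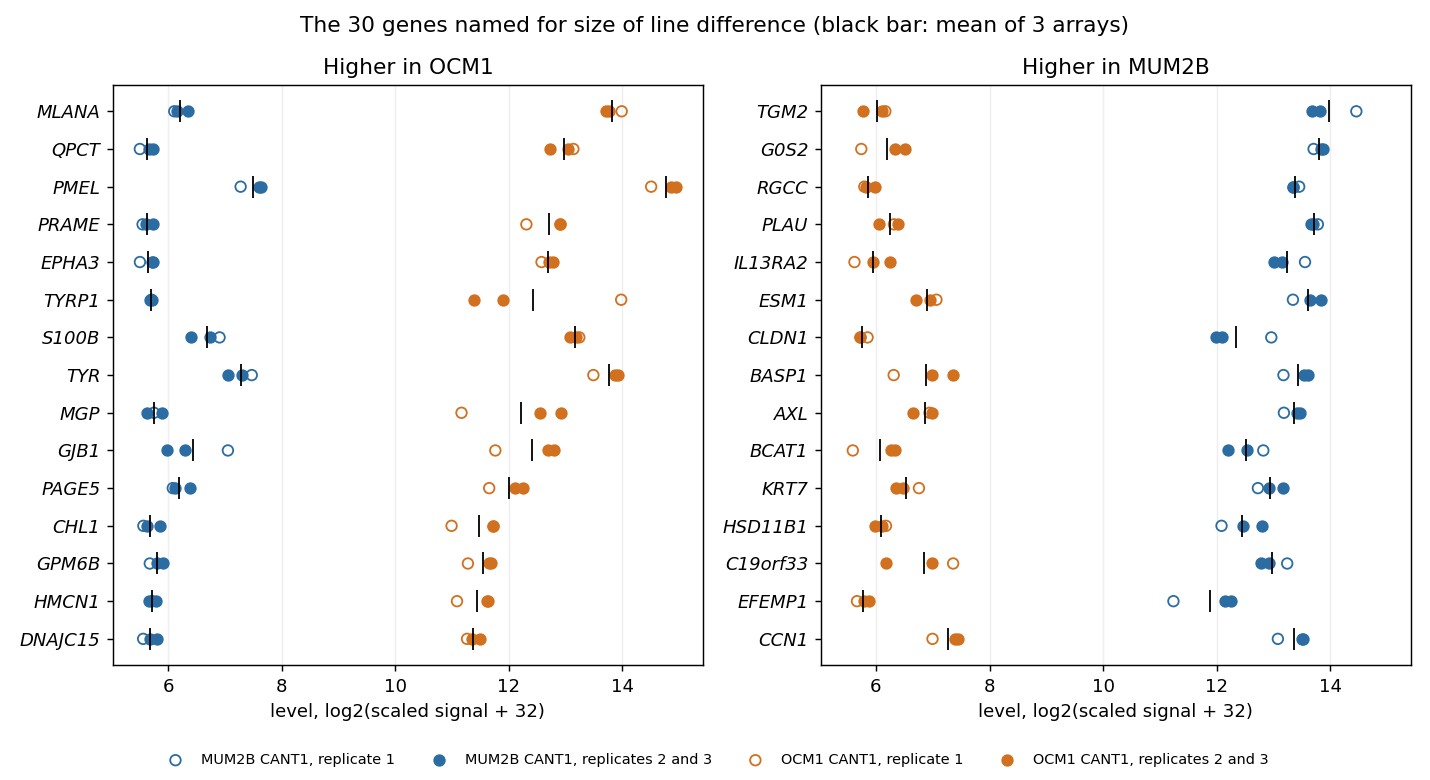
Level of the 15 genes with the largest called difference in each direction among those whose lines did not overlap, 1 point per CANT1 array (x axis: log2 of scaled signal plus 32; open points: replicate 1; black bar: mean of 3 arrays). MUM2B arrays lie at 5.50 to 7.63 in the left panel and at 11.24 to 14.46 in the right panel, and OCM1 arrays at 10.99 to 14.94 and at 5.59 to 7.44. Among OCM1 arrays TYRP1 shows the widest spread on the left.

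Several of the other genes with the largest differences are not in the pigment, melanocyte factor or dedifferentiated state lists used here. Toward OCM1 these were the gap junction gene GJB1 (5.97 ± 0.34), the neural adhesion gene CHL1 (5.80 ± 0.14), the membrane protein gene GPM6B (5.74 ± 0.095), the matrix gene HMCN1 (5.73 ± 0.13) and the mitochondrial DNAJC15 (5.70 ± 0.094). Toward MUM2B they were G0S2 (−7.62 ± 0.13), an inhibitor of fat breakdown, the endothelial proteoglycan ESM1 (−6.71 ± 0.15), BASP1 (−6.55 ± 0.14), the amino acid enzyme BCAT1 (−6.46 ± 0.23) and the matrix gene EFEMP1 (−6.11 ± 0.16). The largest differences were named only where the arrays of the lines did not overlap, so that separation is no separate result.

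The factors that specify the lineage were on the same side. Of 13 tested melanocyte factors and signalling genes, 12 were higher in OCM1 (92.3%, against 33.0% of all genes) and 0 lower, with a median of 3.28. MITF lay at 7.24, 7.59 and 7.22 in MUM2B and 12.15, 12.18 and 12.37 in OCM1, a difference of 4.88 ± 0.12, adjusted p = 4.36e-08, and PAX3 at 6.05, 6.0 and 6.11 in MUM2B and 10.11, 10.03 and 10.12 in OCM1, a difference of 4.03 ± 0.091, adjusted p = 2.97e-08. Both were tightly grouped within each line. SOX10, used above as a marker, was low even in OCM1: it lay at 7.67, 7.50 and 7.41 in MUM2B and 8.07, 9.17 and 8.82 in OCM1, a difference of 1.16 ± 0.23, adjusted p = 0.0026, with OCM1 replicate 1 the nearest to MUM2B. S100B, a calcium-binding protein used to stain melanocytic tumours, differed by 6.49 ± 0.12. ERBB3, a neuregulin receptor of melanocytes, differed by 5.50 ± 0.26, the endothelin receptor EDNRB by 4.47 ± 0.20 and the pigmentation factor IRF4 by 4.63 ± 0.15. BCL2A1, a survival gene under MITF, was the 1 tested member that was not called (0.12 ± 0.26, adjusted p = 0.709).

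As MITF and many pigment genes were high together in OCM1, the promoters of these genes are shown, with E-box letters in capitals. The letters searched were CATGTG and CACGTG on both strands, so that the reverse of the former also counts, in the 250 bases before each RefSeq start site. The 150 bases next to the start are printed 5′ to 3′ on the gene's strand, GRCh38.p14, for TYR (chr11:89177725-89177874, plus strand), TYRP1 (chr9:12693235-12693384, plus), GPR143 (chrX:9765848-9765997, minus), TRPM1 (chr15:31101726-31101875, minus, 1 of its start sites) and MLANA (chr9:5890739-5890888, plus). The first 4 carry the letters at the distances given after them, and MLANA, with the largest difference toward OCM1, is shown because its window has none. The TRPM1 start site was picked because its window has the letters.
TYR: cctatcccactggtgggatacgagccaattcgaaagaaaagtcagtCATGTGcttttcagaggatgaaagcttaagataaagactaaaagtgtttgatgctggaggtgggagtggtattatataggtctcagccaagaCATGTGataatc
TYRP1: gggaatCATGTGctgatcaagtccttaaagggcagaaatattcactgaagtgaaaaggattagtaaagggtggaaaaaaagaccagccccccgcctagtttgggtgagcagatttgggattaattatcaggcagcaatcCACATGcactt
GPR143: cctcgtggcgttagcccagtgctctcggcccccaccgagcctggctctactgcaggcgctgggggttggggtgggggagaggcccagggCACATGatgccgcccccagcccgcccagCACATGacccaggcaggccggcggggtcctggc
TRPM1: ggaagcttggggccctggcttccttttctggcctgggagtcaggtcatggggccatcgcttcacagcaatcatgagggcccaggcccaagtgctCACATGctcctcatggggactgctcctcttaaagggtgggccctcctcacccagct
MLANA: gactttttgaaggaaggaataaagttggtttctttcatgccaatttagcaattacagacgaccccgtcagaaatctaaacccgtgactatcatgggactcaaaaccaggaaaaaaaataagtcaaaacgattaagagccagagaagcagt
The matches begin 104 and 12 bases before the start in TYR, 144 and 11 in TYRP1, 61 and 33 in GPR143 and 56 in TRPM1.

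Of the 17 pigment genes higher in OCM1, 13 matched an entry of the RefSeq promoter table, and 10 of these (76.9%) had the letters in at least 1 promoter, against 4983 of 27305 genes (18.2%). Genes with several start sites have more chances to match. Counted by promoter, 11 of 28 (39.3%) matched, against 5346 of 35116 (15.2%). Of the 12 melanocyte factors higher in OCM1, 8 were in the table and 2 (EDNRB and ZEB2) matched. MITF itself did not. Of the 10 cytokine and chemokine genes lower in OCM1, 7 were in the table and 0 matched, and of the 14 dedifferentiated state genes lower in OCM1, 11 were in the table and 3 (AXL, EGFR and TCF4) matched. These counts describe letters in a fixed window and no binding was measured. Pigment genes that were not called were not searched, so the pigment share describes genes of that list and not the line difference.

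MUM2B held the opposite profile. Of 17 genes known to be high in dedifferentiated melanoma cells, 14 were lower in OCM1, that is higher in MUM2B (82.4%, against 26.2% of all genes), 1 was higher and the median was −2.43. AXL, a receptor tyrosine kinase, lay at 13.19, 13.42 and 13.47 in MUM2B and 6.94, 6.98 and 6.66 in OCM1, a difference of −6.50 ± 0.13, adjusted p = 2.00e-08. The AP-1 subunit FOSL1 lay at 11.56, 12.48 and 12.50 in MUM2B and 6.78, 6.77 and 6.53 in OCM1, a difference of −5.48 ± 0.21, adjusted p = 3.22e-07. Both genes were bright on every MUM2B array and dim on every OCM1 array. INHBA, the activin A subunit, differed by −5.43 ± 0.24, and TGFBI, a matrix protein induced by TGF-β, by −5.38 ± 0.10. The member that went the other way was the matrix gene TNC (1.33 ± 0.10), while NRG1 (−0.18 ± 0.13, adjusted p = 0.255) and PDGFRB (0.17 ± 0.098, adjusted p = 0.182) were not called.

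Targets and partners of the growth regulators YAP and TAZ were also mostly higher in MUM2B. Of 17 tested, 12 were lower in OCM1 (70.6%, against 26.2% of all genes) and 3 higher (17.6%, against 33.0%), with a median of −1.36. AXL, CCN1 and CCN2 are shared with the list above. The matricellular genes CCN1 and CCN2, standard YAP targets, differed by −6.09 ± 0.086 and −5.31 ± 0.096. CCN1 lay at 13.08, 13.51 and 13.52 in MUM2B and 7.0, 7.44 and 7.39 in OCM1. AMOTL2 and AJUBA, adaptor proteins of the same pathway, differed by −3.77 ± 0.12 and −3.20 ± 0.088. The 3 members higher in OCM1 were WWTR1 (1.34 ± 0.28), which encodes TAZ itself, and the DNA-binding partners TEAD1 (0.48 ± 0.094) and TEAD3 (0.34 ± 0.099). YAP1 was not called (−0.30 ± 0.12, adjusted p = 0.0628).

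The lines carried different receptor tyrosine kinases. Of 33 receptors and ligands tested, 18 were lower in OCM1 (54.5%, against 26.2% of all genes) and 10 higher (30.3%, against 33.0%). EPHA3, an ephrin receptor, was the furthest of the list toward OCM1 and lay at 5.50, 5.71 and 5.73 in MUM2B and 12.58, 12.72 and 12.79 in OCM1, a difference of 7.05 ± 0.087, adjusted p = 8.95e-09. ERBB3 and EPHA3 marked OCM1, whereas AXL, EGFR (−4.22 ± 0.13), the collagen receptor DDR2 (−4.11 ± 0.11) and the ligand PDGFA (−4.53 ± 0.12) marked MUM2B. EGFR lay at 10.68, 11.32 and 11.41 in MUM2B and 6.82, 6.97 and 6.97 in OCM1, with no overlap. The probe sets of EPHA3 ranged from 2.17 to 7.05 and those of AXL from −6.50 to −2.21, in 1 direction for each gene. Outputs of the MAP kinase pathway were near the shares of all genes, with 9 higher (32.1%), 9 lower (32.1%) and 10 not called of 28. Their median was −0.04. Besides FOSL1, those furthest toward MUM2B were EPHA2 (−3.97 ± 0.14), the AP-1 subunit JUN (−3.13 ± 0.41) and cyclin D1 (CCND1, −2.62 ± 0.17).

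Genes of the matrix and of its turnover differed in both directions. The cross-linking enzyme TGM2 had the largest difference of all toward MUM2B: it lay at 14.46, 13.82 and 13.68 in MUM2B and 6.16, 6.11 and 5.76 in OCM1, a difference of −7.98 ± 0.14, adjusted p = 2.00e-08. PLAU, the urokinase that activates plasminogen, lay at 13.78, 13.70 and 13.67 in MUM2B and 6.32, 6.39 and 6.04 in OCM1, a difference of −7.47 ± 0.11, adjusted p = 1.51e-08, and its receptor PLAUR differed by −2.77 ± 0.087. In TGM2 and PLAU alike, every OCM1 array was below a signal of 100. On the OCM1 side stood the calcification inhibitor MGP, which lay at 5.75, 5.90 and 5.62 in MUM2B and 11.17, 12.92 and 12.55 in OCM1, a difference of 6.46 ± 0.29, adjusted p = 8.95e-07, and the proteoglycan LUM (4.42 ± 0.11). Of 29 matrix glycoproteins and proteoglycans, 11 were higher in OCM1 (37.9%, against 33.0% of all genes) and 14 lower (48.3%, against 26.2%). Of 28 proteases and inhibitors, 10 were higher (35.7%) and 11 lower (39.3%). Collagen chains leaned to MUM2B, with 10 of 17 lower in OCM1 (58.8%) and 2 higher (11.8%). COL12A1 (−4.99 ± 0.099) and COL13A1 (−3.89 ± 0.20) were the furthest in that direction, and COL9A3 (5.54 ± 0.24) was the furthest in the other. Of 22 integrins and laminins, 9 were higher in OCM1 (40.9%) and 8 lower (36.4%). The laminin chain LAMB3 differed by −6.00 ± 0.20, and ITGA3 by −2.94 ± 0.14, while the laminin chain LAMA1 (3.78 ± 0.092), ITGA4 (3.63 ± 0.087) and ITGB3 (2.86 ± 0.20) were higher in OCM1.

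Some genes of other tissues were expressed in MUM2B. Simple epithelial keratins were among them: KRT7 lay at 12.73, 13.17 and 12.93 in MUM2B and 6.76, 6.47 and 6.35 in OCM1, a difference of −6.41 ± 0.15, adjusted p = 3.94e-08, and KRT8 and KRT18, its usual partners, differed by −5.83 ± 0.13 and −3.26 ± 0.14. The tight junction gene CLDN1 differed by −6.59 ± 0.16. Probe sets of keratins may read related copies. The defining epithelial markers CDH1 and EPCAM were below 100 on all 6 arrays. The summed signal of 8 epithelial markers, 1 probe set per gene, was 1086 to 1369 in MUM2B and 957.8 to 1298.6 in OCM1, so this sum did not separate the lines. CLDN4 was its largest part, at 620 to 811 in MUM2B and 360 to 504 in OCM1. The 3 probe sets of CLDN4 ranged from −3.79 to −0.59, so the sum depends on the probe set kept. KRT7, KRT8, KRT18 and CLDN1 are not among these markers. In a longer epithelial list, 11 of 19 genes on the array passed the signal filter and were tested. Of these 11, 7 were lower in OCM1 (63.6%, against 26.2% of all genes) and 1 higher (9.09%, against 33.0%). ESRP1, an epithelial splicing regulator, was higher in OCM1 (1.92 ± 0.18). Of 14 endothelial genes, 10 were lower in OCM1 (71.4%) and 1 higher (7.14%), with a median of −1.05. CDH5, the cadherin of blood vessel lining cells, whose expression in aggressive uveal melanoma cells has been linked to the forming of vessel-like channels, lay at 11.36, 12.03 and 12.19 in MUM2B and 6.90, 6.81 and 6.62 in OCM1, a difference of −5.08 ± 0.19, adjusted p = 2.99e-07. The semaphorin and VEGF co-receptor NRP1 lay at 11.35, 11.19 and 11.09 in MUM2B and 5.93, 5.93 and 5.93 in OCM1, a difference of −5.28 ± 0.095, adjusted p = 2.00e-08, and ROBO4 differed by −3.97 ± 0.13. The defining endothelial genes TEK and EMCN were below 100 on all 6 arrays and VWF was not called (0.24 ± 0.11, adjusted p = 0.0809). The summed signal of 7 endothelial markers was 3546 to 5512 in MUM2B and 654 to 805 in OCM1, and CDH5 made up most of it in MUM2B.

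Inflammatory genes were higher in MUM2B. Of 30 cytokines and chemokines on the array, 15 passed the signal filter and were tested. Of these 15, 10 were lower in OCM1 (66.7%, against 26.2% of all genes) and 3 higher (20%, against 33.0%). Their median was −1.17. Interleukin 1 alpha (IL1A) lay at 11.93, 12.27 and 12.43 in MUM2B and 6.26, 6.13 and 6.12 in OCM1, a difference of −6.04 ± 0.13, adjusted p = 2.68e-08. Interleukin 1 beta (IL1B) lay at 12.26, 13.35 and 13.40 in MUM2B and 7.20, 7.32 and 6.90 in OCM1, a difference of −5.86 ± 0.24, adjusted p = 4.95e-07. The neutrophil attractants CXCL8 and CXCL1 differed by −5.17 ± 0.17 and −5.14 ± 0.22. For all 4 the OCM1 arrays lay within or next to the dim range, so these are differences between a bright and a barely detected gene. IL18 (−3.69 ± 0.21) and LIF (−3.48 ± 0.099) were on the same side. In the NF-κB list, 11 of 18 were lower in OCM1 (61.1%) and 4 higher (22.2%). Among them TNFAIP2 (−2.87 ± 0.11) and the inhibitor NFKBIA (−1.99 ± 0.11) were lower. The adhesion gene ICAM1 (1.30 ± 0.21) and TNFAIP6 (1.47 ± 0.18) were higher. Among cytokine receptors the decoy receptor IL13RA2 lay at 13.56, 13 and 13.16 in MUM2B and 5.62, 6.25 and 5.94 in OCM1, a difference of −7.30 ± 0.20, adjusted p = 6.08e-08. The death receptors TNFRSF10B (−4.52 ± 0.17) and TNFRSF10A (−2.77 ± 0.14) were lower in OCM1, and TNFRSF19 was higher (5.49 ± 0.094).

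Of 36 interferon-stimulated genes, 17 were lower in OCM1 (47.2%, against 26.2% of all genes) and 10 higher (27.8%, against 33.0%), with a median of −0.08. BST2, which tethers budding viruses, was higher in OCM1 (4.48 ± 0.29), as was the ISG15 ligase HERC5 (3.26 ± 0.12), while IFITM2 (−2.96 ± 0.12) and IFI27 (−2.20 ± 0.098) were lower. HLA class II genes were on the OCM1 side, with 6 of 9 tested higher (66.7%) and 0 lower. The list has 15 genes on the array, and the others did not pass the signal filter. HLA-DMA, which loads peptide onto class II molecules, lay at 6.0, 6.05 and 6.34 in MUM2B and 9.52, 9.74 and 9.66 in OCM1, a difference of 3.51 ± 0.11, adjusted p = 1.05e-07, and the class II chain HLA-DPA1 differed by 2.09 ± 0.11. The partner of HLA-DMA, HLA-DMB (3.57 ± 0.14), and the lysosomal reductase IFI30 (3.64 ± 0.092) were of like size. CIITA, the master regulator of the class, was not called (0.07 ± 0.11, adjusted p = 0.582). HLA genes are similar in sequence, and their probe sets may share signal.

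**Figure D2:**
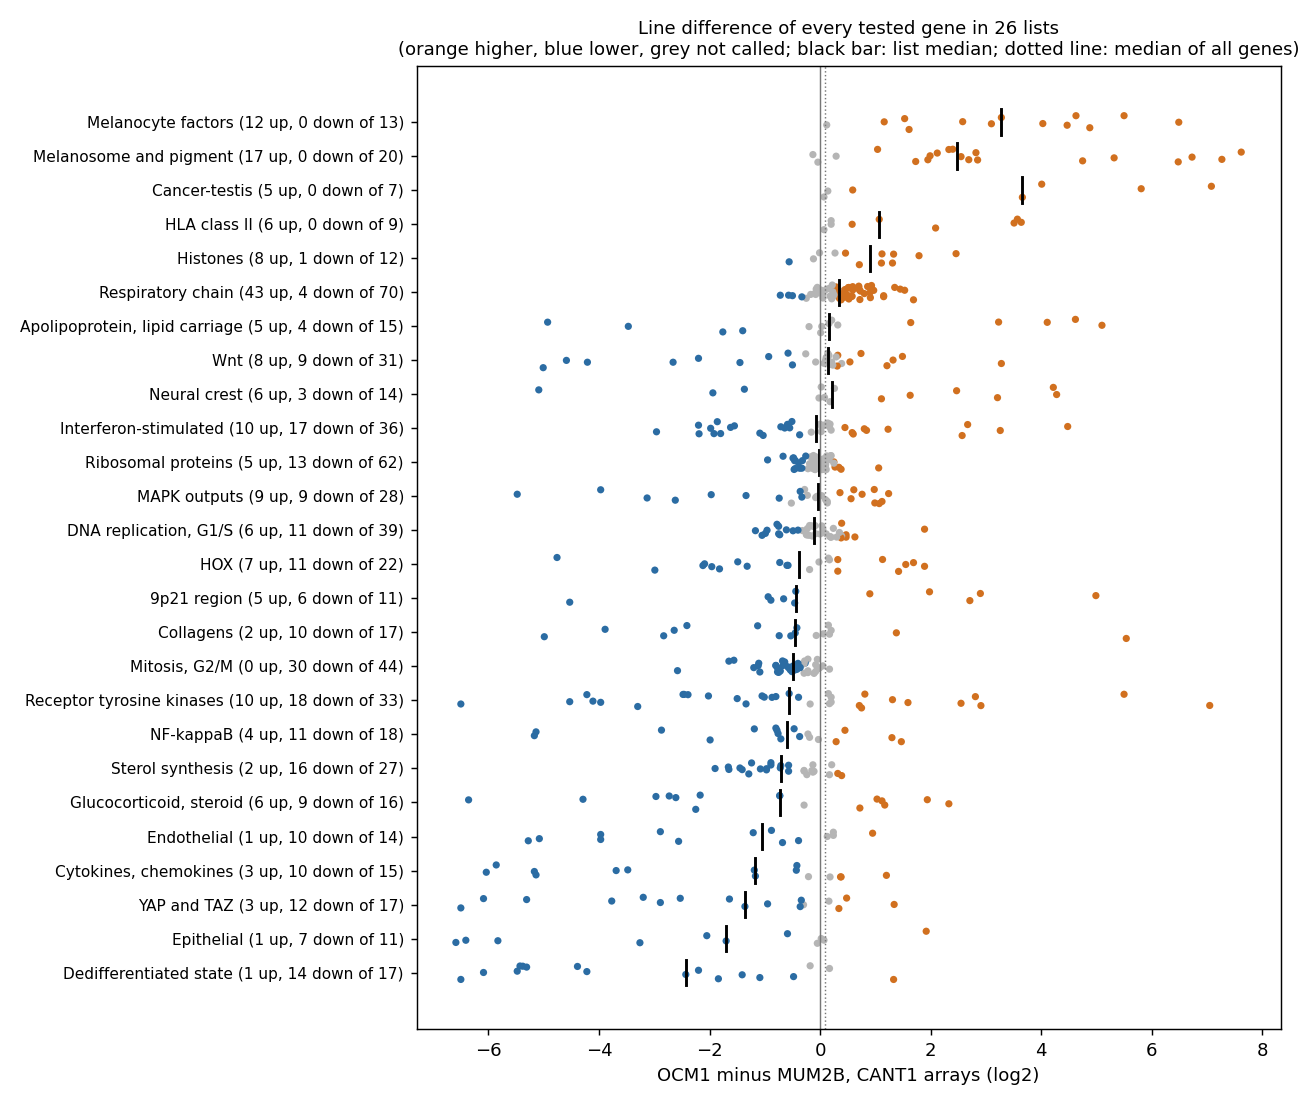
Line difference on the CANT1 arrays (x axis, OCM1 minus MUM2B, log2) of every tested member of 26 gene lists, 1 point per gene. Pigment genes and melanocyte factors lie mostly to the right of 0, with medians of 2.48 and 3.28, the dedifferentiated state and YAP lists to the left with medians of −2.43 and −1.36, and ribosomal proteins are gathered near 0 with a median of −0.02.

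Mitotic genes were lower in OCM1 by small amounts. Of 44, 30 were lower (68.2%, against 26.2% of all genes) and 0 higher, with a median of −0.49. UBE2C, a ubiquitin enzyme of mitotic exit, lay at 13.34, 13.08 and 12.98 in MUM2B and 11.15, 10.14 and 10.36 in OCM1, a difference of −2.58 ± 0.14, adjusted p = 2.32e-06. CDC20, which works with it, differed by −1.65 ± 0.13, ANLN by −1.56 ± 0.095 and cyclin B1 (CCNB1) by −1.11 ± 0.11. DNA replication genes were more mixed, with 6 higher (15.4%, against 33.0% of all genes), 11 lower (28.2%, against 26.2%) and 22 not called of 39. Their median was −0.11.

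The 9p21 region, which holds the cell cycle inhibitors CDKN2A and CDKN2B and is often lost in melanoma, separated the lines by gene. CDKN2A lay at 6.20, 8.22 and 8.27 in MUM2B and 11.33, 13.19 and 13.12 in OCM1, a difference of 4.99 ± 0.095, adjusted p = 2.00e-08. In both lines replicate 1 was lower than the other two, and in MUM2B it was dim. MTAP, the neighbouring methionine salvage enzyme, lay at 6.12, 6.01 and 6.06 in MUM2B and 9.10, 8.76 and 9.01 in OCM1, a difference of 2.90 ± 0.10, adjusted p = 2.44e-07, and CDKN2B at 5.60, 5.69 and 6.10 in MUM2B and 8.56, 8.55 and 8.41 in OCM1, a difference of 2.71 ± 0.14, adjusted p = 1.67e-06. All MUM2B arrays of MTAP and CDKN2B were below a signal of 100. HACD4, a fatty acid enzyme gene of the same region, had the reverse pattern, lying at 10.24, 10.06 and 10.10 in MUM2B and 5.57, 5.61 and 5.64 in OCM1, a difference of −4.53 ± 0.094, adjusted p = 2.33e-08. Over the 11 tested genes of the region 5 were higher in OCM1 (45.5%, against 33.0% of all genes) and 6 lower (54.5%, against 26.2%). DNA copy number was not measured. Of 31 apoptosis genes 12 were higher (38.7%) and 13 lower (41.9%). Among them the kinase DAPK1 (3.41 ± 0.10) and the melanoma inhibitor of apoptosis BIRC7 (1.85 ± 0.11) were higher in OCM1, and CASP4 (−3.30 ± 0.14) and BIK (−2.78 ± 0.12) lower.

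PRAME, a cancer-testis antigen used as a marker of metastatic risk in uveal melanoma, lay at 5.55, 5.61 and 5.74 in MUM2B and 12.31, 12.91 and 12.91 in OCM1, a difference of 7.08 ± 0.12, adjusted p = 1.96e-08, dim on every MUM2B array and bright on every OCM1 array. Of 21 cancer-testis genes on the array, only 7 passed the signal filter and were tested. Of these 7, 5 were higher in OCM1 (71.4%, against 33.0% of all genes) and 0 lower. PRAME passed the filter through its OCM1 arrays alone, so the share is partly set by the filter. PAGE5 differed by 5.81 ± 0.12, CSAG1 by 4.01 ± 0.23 and MAGEA12 by 3.66 ± 0.28. These families have near-identical copies, and the probe sets of PAGE5 ranged from −0.16 to 6.07. Among uveal melanoma class genes, MTUS1 (3.73 ± 0.094), ECM1 (3.14 ± 0.16) and LMCD1 (2.52 ± 0.12) were higher in OCM1 and SATB1 (−2.80 ± 0.24) was lower, whereas the driver genes GNA11 (−0.27 ± 0.13, adjusted p = 0.107), SF3B1 (−0.21 ± 0.095, adjusted p = 0.0927) and EIF1AX (−0.01 ± 0.12, adjusted p = 0.923) were not called. Expression says nothing of their mutations.

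HOX genes, which set position along the body axis, differed in both directions. Of 22 tested, 7 were higher in OCM1 (31.8%, against 33.0% of all genes) and 11 lower (50%, against 26.2%). Of the 9 HOXB genes tested, 7 were lower in OCM1 and 0 higher, whereas of the 7 HOXC genes 5 were higher and 1 lower. Of the 5 HOXD genes 2 were higher and 2 lower, and the 1 HOXA gene tested was lower. HOXB2 lay at 12.01, 11.47 and 11.46 in MUM2B and 6.61, 7.07 and 6.99 in OCM1, a difference of −4.76 ± 0.19, adjusted p = 4.03e-07, HOXB6 differed by −2.99 ± 0.096 and HOXC4 by 1.89 ± 0.12. Of 14 neural crest genes, 6 were higher in OCM1 (42.9%), 3 lower (21.4%) and 5 not called, with a median of 0.22. SOX9 lay at 11.10, 11.10 and 10.78 in MUM2B and 5.78, 5.93 and 6.01 in OCM1, a difference of −5.09 ± 0.13, adjusted p = 4.36e-08, while SOX6 (4.22 ± 0.10), SOX5 (3.21 ± 0.21) and the adhesion gene L1CAM (4.28 ± 0.097) were higher in OCM1. In the Wnt list, the secreted antagonist DKK1 lay at 12.13, 11.87 and 11.56 in MUM2B and 7.42, 6.48 and 6.62 in OCM1, a difference of −5.01 ± 0.14, adjusted p = 6.08e-08. DKK3 (−4.21 ± 0.11) and the ligands WNT5B (−4.59 ± 0.14) and WNT5A (−2.20 ± 0.13) were also lower in OCM1, and the nuclear partner of β-catenin, LEF1, was higher (3.28 ± 0.22). Over the 31 Wnt members, 8 were higher (25.8%) and 9 lower (29%), near the shares of all genes, so only single members are described. Of 35 TGF-β and BMP genes 13 were higher (37.1%) and 13 lower (37.1%). The pseudoreceptor BAMBI (5.26 ± 0.13) and ID4 (4.66 ± 0.23) were furthest toward OCM1, with SMAD3 (−3.63 ± 0.14) next to INHBA on the other side.

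Sterol synthesis genes were lower in OCM1, by an amount that varied with the labelled set. Of 27, 16 were lower (59.3%, against 26.2% of all genes) and 2 higher (7.41%, against 33.0%). The median was −0.71, with −0.15 on replicate 1 and −0.92 on replicates 2 and 3. HMGCS1, an early enzyme of the pathway, lay at 9.84, 10.72 and 11.35 in MUM2B and 9.04, 9.02 and 8.89 in OCM1, a difference of −1.65 ± 0.27, adjusted p = 0.00103. INSIG1, a sensor of sterol level, lay at 11.40, 11.12 and 11.33 in MUM2B and 10.72, 9.12 and 9.68 in OCM1, a difference of −1.45 ± 0.25, adjusted p = 0.00131. In both genes the lines did not overlap, and the gap was wider on replicates 2 and 3. Of 15 genes that carry lipid, 5 were higher in OCM1 (33.3%) and 4 lower (26.7%), close to the 33.0% and 26.2% of all genes, so only single members are described. The apolipoproteins APOC1 and APOE, neighbours on chromosome 19, differed by 5.10 ± 0.19 and 4.62 ± 0.24, while the cholesterol exporters ABCA1 and ABCG1 differed by −4.93 ± 0.20 and −3.47 ± 0.16. Probe sets ranged from 0.58 to 5.9 in APOC1 and from −4.93 to −1.09 in ABCA1. APOE lay at 7.83, 7.89 and 7.61 in MUM2B and 11.62, 12.91 and 12.67 in OCM1.

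Steroid metabolism gave large differences. HSD11B1, which regenerates cortisol from cortisone, lay at 12.09, 12.46 and 12.80 in MUM2B and 6.18, 5.99 and 6.11 in OCM1, a difference of −6.36 ± 0.16, adjusted p = 4.61e-08. The aldo-keto reductases AKR1C2 (−4.29 ± 0.11) and AKR1C1 (−2.73 ± 0.17), which are near-identical in sequence, and the phosphatase DUSP1 (−2.97 ± 0.16), a glucocorticoid target, were also lower in OCM1. SGK1, another such target, was higher (2.33 ± 0.14). Over the 16 members, 6 were higher (37.5%, against 33.0% of all genes) and 9 lower (56.2%, against 26.2%).

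Subunits of the respiratory chain were higher in OCM1 in small steps, with 43 of 70 higher (61.4%, against 33.0% of all genes), 4 lower and a median of 0.35. COX5B, of complex IV, lay at 12.36, 12.24 and 12.18 in MUM2B and 13.83, 14.05 and 13.98 in OCM1, a difference of 1.69 ± 0.10, adjusted p = 4.71e-06, and NDUFA5, of complex I, differed by 1.45 ± 0.11. Cytosolic ribosomal proteins differed little, with 44 of 62 not called and a median of −0.02. Histone genes were higher in OCM1 in 8 of 12 (66.7%). H1-2 lay at 8.41, 7.94 and 7.62 in MUM2B and 10.22, 10.64 and 10.48 in OCM1, a difference of 2.46 ± 0.20, adjusted p = 2.18e-05. The list median was 0.26 on replicate 1 and 1.27 on the others. Most histone transcripts lack a poly(A) tail and have close copies, so these probe sets are open to cross-hybridization.

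A stricter view is that of genes near the floor in 1 line. With a signal of at most 50 on all 3 arrays of 1 line and at least 500 on all 3 of the other, 119 genes (0.986% of those tested) qualified, 61 bright in OCM1 and 58 bright in MUM2B. The OCM1 group held MLANA, TYRP1, PRAME, EPHA3, EDNRB, IRF4, PAX3 and ERBB3 of those above. The MUM2B group held TGM2, CLDN1, IL13RA2, NRP1, SOX9, IL1A, CXCL8, HACD4 and ABCA1. QPCT, an enzyme that forms pyroglutamate at peptide ends, came after MLANA in size of difference among the former and lay at 5.50, 5.66 and 5.73 in MUM2B and 13.14, 12.73 and 13.04 in OCM1, a difference of 7.34 ± 0.13, adjusted p = 2.00e-08. RGCC, a cell cycle regulator responding to complement, lay at 13.45, 13.35 and 13.35 in MUM2B and 5.79, 5.82 and 5.98 in OCM1, a difference of −7.52 ± 0.099, adjusted p = 9.47e-09.

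Differences were also spread unevenly over the chromosomes. Chromosome 18 had a median of 0.43, with 53.4% of its 174 tested genes higher in OCM1, and chromosome 9 a median of −0.28, with 49.2% of 484 lower and 15.5% higher. The other chromosomes had medians between −0.08 and 0.20. All 6 wild type arrays gave 0.22 for chromosome 18 and −0.23 for chromosome 9, and wild type replicates 2 and 3 gave 0.45 and −0.29. In runs of 20 neighbouring tested genes, ordered by the RefSeq table (GRCh38.p14), the highest median was 1.77, on chromosome 5 from HARS2 to PCDHB15, where 16 of 20 genes were higher in OCM1 and 1 was lower. It is a cluster of protocadherins, adhesion molecules of neural cells, with PCDHB6 at 4.83 ± 0.13 and PCDHB5 at 3.85 ± 0.13; these genes are copies of each other and their probe sets may share signal. The next were chromosome 19 from SMIM7 to SLC27A1, with a median of 1.24, and chromosome 18 from PHLPP1 to MBP (1.22). The chromosome 19 run holds BST2, described above. The lowest were chromosome 7 from AMZ1 to ZDHHC4 (−0.97, 17 of 20 lower), chromosome 19 from ZNF576 to PVR (−0.96) and the end of chromosome 9 from VAV2 to SEC16A (−0.95, 15 of 20 lower). Over the 11620 such runs, the middle 99% had medians between −0.78 and 1.06.

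**Figure D3:**
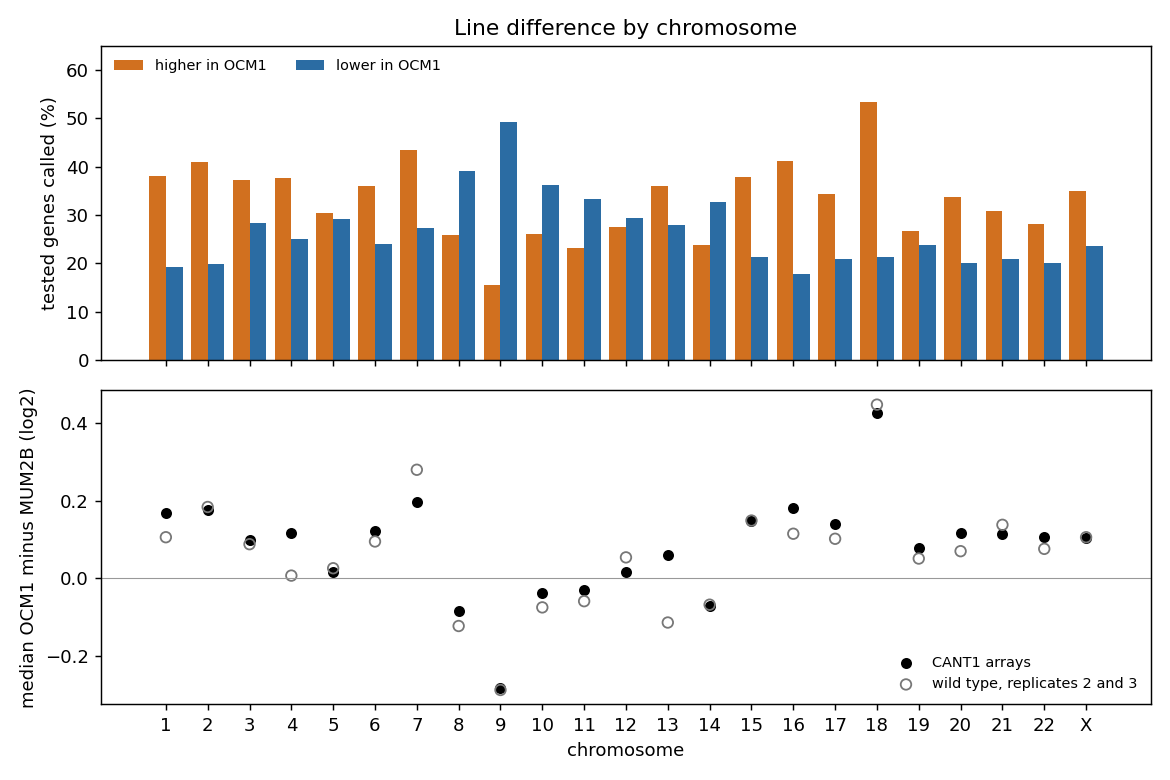
Upper panel: percent of tested genes called higher (orange) or lower (blue) in OCM1 on each chromosome, CANT1 arrays. Lower panel: median OCM1 minus MUM2B (log2) on the CANT1 arrays (filled) and on wild type replicates 2 and 3 (open). Chromosome 18 is highest at 0.43 and chromosome 9 lowest at −0.28 on the CANT1 arrays.

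The labelled sets were then compared with each other. A line difference that itself differed between replicate 1 and replicates 2 and 3 was called for 805 genes (6.67%), larger toward OCM1 on replicate 1 for 305 and toward MUM2B for 500, and 181 of them had opposite signs in the 2 sets. Since each line has 1 array in the first set, its spread was taken from replicates 2 and 3. The actin ratio given above also changed with the set, and its part in these genes was not tested. SERPINA3, an acute phase protease inhibitor, lay at 6.68, 6.54 and 6.97 in MUM2B and 8.56, 14.17 and 13.69 in OCM1. Its difference was 1.88 on replicate 1 and 7.17 on the others, a gap of −5.30 ± 0.32, adjusted p = 3.25e-04. The MUM2B arrays were alike, and within OCM1 replicate 1 was far below the others. SYTL2, a melanosome and vesicle tether, lay at 10.71, 9.87 and 9.78 in MUM2B and 8.20, 11.01 and 11.03 in OCM1, so its difference was −2.51 and 1.20, a gap of −3.71 ± 0.17, adjusted p = 9.93e-05. The sign turned between the sets, and over all 6 arrays the gene was not called. UCHL1, a neuronal ubiquitin hydrolase, had −7.25 and −4.21, the lipocalin APOD 1.12 and 4.29, and the RNA-binding gene RBMS3 −2.94 and 0.02. In the other direction stood the potassium channel subunit KCNAB1 (3.78 and 1.07), the urea transporter SLC14A1 (−1.89 and −4.54), TYRP1 (8.27 and 5.96), the glycosyltransferase GALNT3 (3.13 and 0.87) and the differentiation inhibitor ID2 (3.97 and 1.71). Among the 805 genes the change from one set to the other was larger in OCM1 for 542 (67.3%), against 53.9% of all genes. Without OCM1 CANT1 replicate 2 the count of 805 became 453. Heat shock genes accounted for 9 of these calls among 27 tested, all with the difference further toward OCM1 on replicate 1, HSPA8 by 1.18 and HSPH1 by 0.89.

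**Figure D4:**
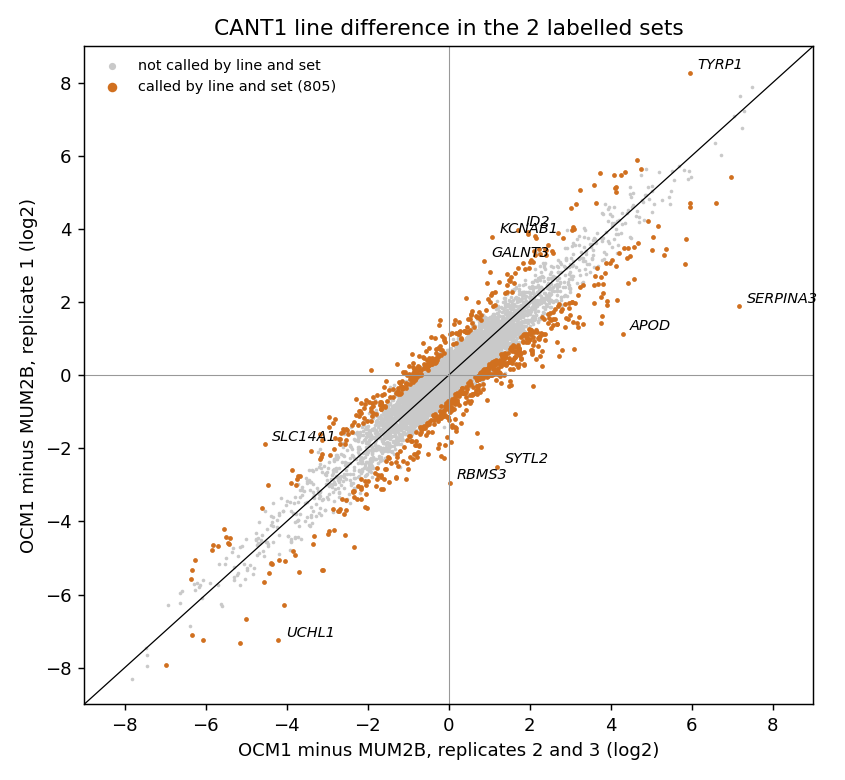
Line difference on replicate 1 (y axis, 1 array per line) against replicates 2 and 3 (x axis, 2 arrays per line), log2, 1 point per gene on the CANT1 arrays, with the diagonal as equality. The 805 genes called by line and set are orange, and SERPINA3 at 7.17 and 1.88 and SYTL2 at 1.20 and −2.51 lie far below the diagonal.

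Finally the same contrast in wild type cells was set beside that in CANT1 cells. These arrays are separate samples. The wild type OCM1 replicate 1 array stood apart from the other OCM1 arrays (correlation 0.804 to 0.840, against 0.949 to 0.995 among the others), and counts and medians of the wild type contrast are therefore given with and without replicate 1. With all 6 wild type arrays 3160 genes (26.2%) were called, 1396 with the replicate number as a block, and on replicates 2 and 3 alone 7812 (64.7%). Of the 7144 genes called with CANT1, 2968 were called in the same direction in all wild type arrays, which is 41.5% of the CANT1 calls and 93.9% of the wild type calls, and 6037 on wild type replicates 2 and 3, which is 84.5% and 77.3%. Genes called in opposite directions numbered 2 with all arrays, HSBP1L1 and ZNF805, and 87 on replicates 2 and 3. The pigment gene median was 2.01 on all 6 wild type arrays, that of melanocyte factors 2.74, that of the dedifferentiated state list −2.91 and that of sterol synthesis −0.22, against 2.48, 3.28, −2.43 and −0.71 on all 6 CANT1 arrays. On wild type replicates 2 and 3 the same medians were 2.89, 3.71, −2.12 and −0.08, against 2.21, 3.68, −2.25 and −0.92 on CANT1 replicates 2 and 3.

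The difference between the CANT1 and the wild type contrast, fitted over all 12 arrays, was called for 5 genes (0.0414%), all further toward OCM1 with CANT1, against 608 at an unadjusted p under 0.05. APOC2, an activator of lipoprotein lipase, lay at 6.85, 6.59 and 6.64 in MUM2B and 10.34, 11.08 and 11.01 in OCM1 with CANT1 and at 6.65, 6.53 and 6.63 in MUM2B and 7.55, 7.01 and 6.97 in OCM1 in wild type cells. The excess over wild type was 3.54 ± 0.31, adjusted p = 0.00464. The 3 OCM1 CANT1 arrays were above all 9 others. The Wnt antagonist SFRP1 lay at 12.30, 12.70 and 12.67 in MUM2B and 11.02, 11.87 and 11.98 in OCM1 with CANT1 and at 11.85, 12.73 and 12.70 in MUM2B and 6.59, 8.69 and 8.82 in OCM1 in wild type cells, an excess of 3.46 ± 0.42, adjusted p = 0.0318. In SFRP1 the wild type OCM1 arrays were low, and the OCM1 CANT1 arrays were below those of MUM2B but near them. NEFL, a neurofilament subunit, had an excess of 1.80 ± 0.22, adjusted p = 0.0318, FSTL5 of 2.01 ± 0.17, adjusted p = 0.00464 and HSBP1L1 of 2.26 ± 0.26, adjusted p = 0.0318. Without wild type OCM1 replicate 1 the count was 27, and on replicates 2 and 3 of all groups it was 2664 (22.1%), 1376 further toward OCM1 with CANT1 and 1288 further toward MUM2B, so the count depended on the use of the replicate 1 arrays. On replicates 2 and 3 SERPINA3 had an excess of 5.23 (adjusted p = 1.20e-06), SYTL2 of 4.99 (adjusted p = 2.05e-08), TYRP1 of −2.08 (adjusted p = 8.01e-05) and INSIG1 of −2.65 (adjusted p = 2.38e-04). Of the 27 sterol genes, 16 were then further toward MUM2B with CANT1 and 1 further toward OCM1. Among all genes, 10.7% were further toward MUM2B and 11.4% further toward OCM1. With the replicate number as a block over all 12 arrays the count was 2. Since the CANT1 arrays of each line are the same ones used above, these excesses are not separate evidence on the differences between the lines.

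**Figure D5:**
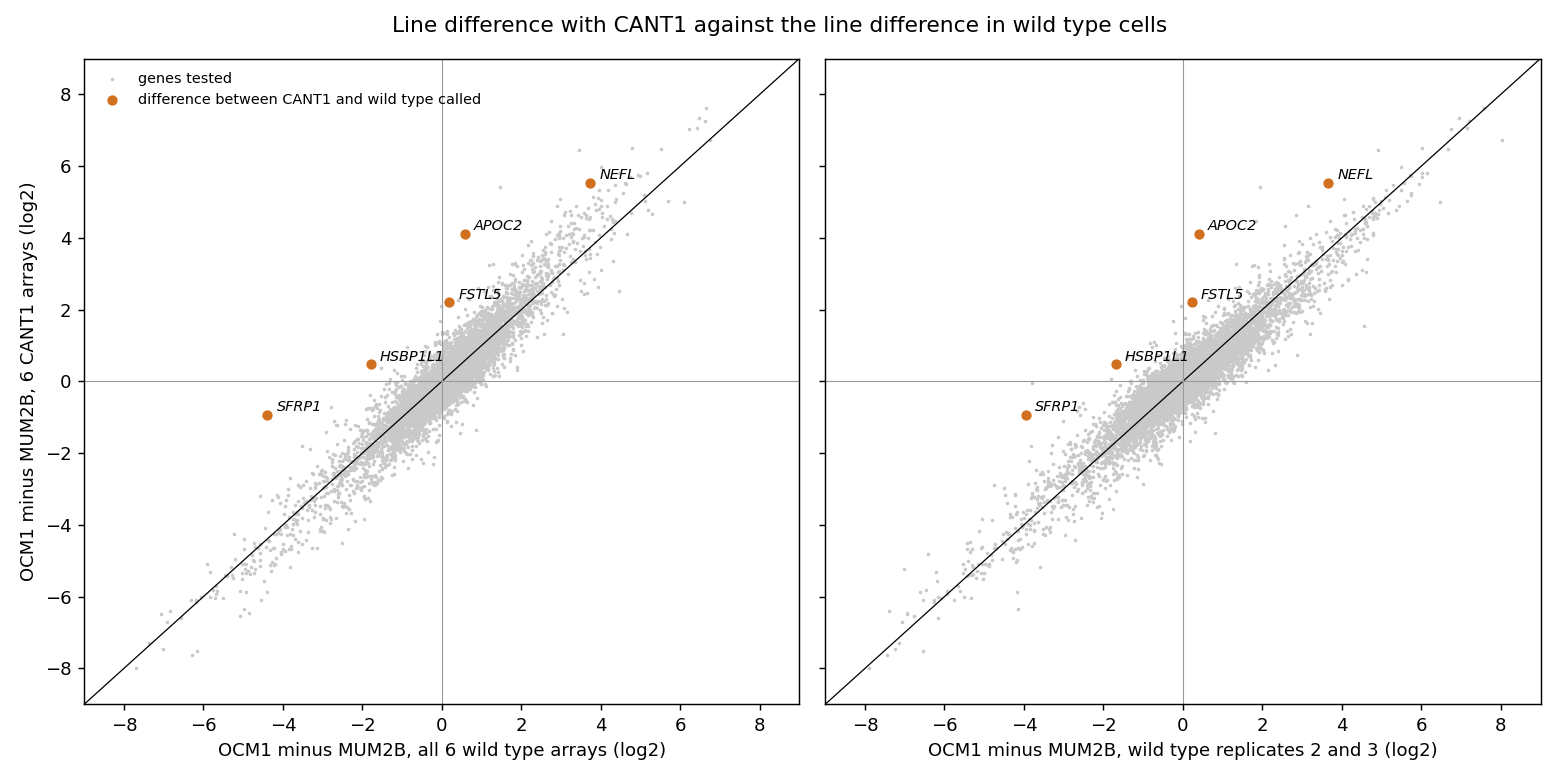
Line difference on the 6 CANT1 arrays (y axis) against that on all 6 wild type arrays (left) and on wild type replicates 2 and 3 (right), log2, 1 point per gene, with the diagonal as equality. Most genes lie along the diagonal, and the 5 called genes (orange) lie above it, APOC2 at 4.11 with CANT1 against 0.58 with all wild type arrays.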

How the data were processed

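RNA from 12 cell samples had been hybridized to Affymetrix PrimeView arrays. The deposited values are log2 intensities per probe set, and MAS5 is named in the submitters' processing notes, with no version. Their medians were 6.85 to 6.88 on the 4 replicate 1 arrays and 6.38 to 6.45 on the others. Values were taken out of the log2 scale, scaled to a trimmed mean of 500 per array (2% trimmed at each end), and turned into log2(signal + 32). Of 49395 probe sets, 44988 name 1 gene, 1832 several and 2473 none. The brightest probe set was kept for each of 18132 genes. Other probe sets of a gene could give smaller differences. They ranged from 0.4 to 3.41 in DAPK1, −4.21 to −0.53 in DKK3, −4.29 to −0.72 in AKR1C2 and −3.77 to −0.73 in AMOTL2. A gene was kept when 3 or more of the 6 CANT1 arrays reached a signal of 100, which left 12071. These were fitted in R 4.3.3 by limma 3.58.1, with line and labelled set as terms and moderated standard errors (eBayes), and called at a Benjamini-Hochberg adjusted p below 0.05; the script was first tested on simulated data. The number of arrays limits the precision. Wild type arrays, the difference between the contrasts and the line by set interaction were fitted the same way.

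Same-numbered CANT1 arrays of the 2 lines deviated from their group means together (r = 0.616, 0.419 and 0.490 for replicates 1, 2 and 3). A shift of replicate 1 shared by both lines could alone give such values, so they do not show that the numbers pair the samples. The difference between replicates 2 and 3, which is free of that shift, correlated at −0.131 between the lines.

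Members and gene lists were chosen with earlier results of these data known. Genes named are the 15 largest called differences in each direction with no overlap and 1 direction in both sets, up to 6 called members of each list by size with defining members that were not called, and the 5 highest and 5 lowest for the other tests. Genes named as exceptions in a list (TNC, WWTR1, TEAD1, TEAD3), in a run of neighbours (PCDHB5, PCDHB6) or for heat shock (HSPA8, HSPH1) were chosen after their values were seen. Gene symbols, gene order, promoters and start sites are from RefSeq (GRCh38.p14).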

Additional observations from a re-analysis of the deposited data

Results flagged for a closer look

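The line difference on the CANT1 arrays differed between the labelled sets for 805 genes and, by a separate test, between CANT1 and wild type cells for 5. In the first test, replicate 1 minus replicates 2 and 3, the line difference was higher on replicate 1 for KCNAB1 (2.70), SLC14A1 (2.65), TYRP1 (2.32), GALNT3 (2.26) and ID2 (2.26). It was lower there for SERPINA3 (−5.30), SYTL2 (−3.71), APOD (−3.17), UCHL1 (−3.05) and RBMS3 (−2.96). In the other test, CANT1 minus wild type, the excess toward OCM1 was 3.54 for APOC2, 3.46 for SFRP1, 2.26 for HSBP1L1, 2.01 for FSTL5 and 1.80 for NEFL. These are interaction terms of limma past an adjusted p of 0.05, on the log2 scale, and all 10 set-dependent genes rest on 1 replicate 1 array per line.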

How the results depend on the processing

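Of the 167 called genes named in the text, 150 kept their direction and their call under all 23 other settings tried, and none of the 167 changed sign. Among those that lost the call under at least 1 setting were HSBP1L1, GALNT3, HSPA8, TEAD1, TEAD3, TNC, ICAM1, TNFAIP6 and SATB1. The 7144 line differences with CANT1 became 4672 when all 12 arrays shared 1 estimate of spread, 1598 in a test against a 2-fold difference and 16110 of 27464 when every probe set was counted, and ranged from 5992 to 7782 with 1 array left out; the replicate block gave 6539. The 3160 wild type calls became 1483 without the set term, 1396 with the replicate block and 7812 on replicates 2 and 3, and ranged from 1045 to 7812 with 1 array left out. In both contrasts the upper end, 7782 or 7812, came from leaving out either replicate 1 array. With the set as a term this is the same fit as replicates 2 and 3 alone. For the CANT1 contrast these settings were counted separately among the 23. The 5 genes that differed between CANT1 and wild type became 3 without the set term, 2 with the replicate block, 3 after quantile normalization and 2664 on replicates 2 and 3, and ranged from 2 to 27 with 1 array left out. The 805 set-dependent genes ranged from 453 to 1158 with 1 array left out. The share of the CANT1 calls that were higher in OCM1 was 51.7% to 57.4%. The replicate block was run for the CANT1, the wild type and the difference counts and not for the set-dependent genes or the list counts. The cause of these shifts was not tested. The low signal of many genes in 1 line limits their fold, and the labels do not say whether replicates are separate cultures.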

Other observations

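Of 37 tested genes that guide nerve fibres, 14 were higher in OCM1 (37.8%, against 33.0% of all genes) and 10 lower (27.0%, against 26.2%), near the background, with a median of 0.13. The semaphorin SEMA6A lay at 6.30, 6.38 and 6.74 in MUM2B and 11.43, 10.65 and 10.70 in OCM1, a difference of 4.45 ± 0.21, adjusted p = 9.86e-07, and SEMA5A differed by 2.62 ± 0.15. NRP1, the semaphorin co-receptor PLXNA2 (−3.46 ± 0.14), netrin 4 (NTN4, −3.07 ± 0.19) and the ephrin EFNB2 (−2.65 ± 0.22) were lower in OCM1. Of 15 neuronal genes 5 were higher (33.3%) and 5 lower (33.3%), also near the background, with the neurofilament NEFL (5.53 ± 0.15) and tubulin TUBB3 (1.85 ± 0.13) higher in OCM1 and UCHL1 (−5.22 ± 0.53) lower.

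Of 30 transporters and channels 13 were higher in OCM1 (43.3%, against 33.0% of all genes) and 10 lower (33.3%, against 26.2%). The cold-sensing channel TRPM8 lay at 5.64, 5.78 and 5.70 in MUM2B and 10.80, 10.75 and 10.79 in OCM1, a difference of 5.07 ± 0.090, adjusted p = 2.00e-08, and the amino acid carrier SLC7A8 differed by 3.39 ± 0.19. In the other direction stood the glutamine carrier SLC38A1, which lay at 12.96, 12.28 and 12.36 in MUM2B and 5.64, 6.95 and 7.40 in OCM1, a difference of −5.87 ± 0.39, adjusted p = 6.94e-06, and the potassium channels KCNMA1 (−4.51 ± 0.22) and KCNN4 (−3.12 ± 0.17). Among detoxification genes the glutathione transferase GSTM3 was higher in OCM1 (4.10 ± 0.087) and the secreted peroxidase GPX3 lower (−3.97 ± 0.27), with 11 higher (40.7%) and 6 lower (22.2%) of 27. In the heat shock list the small chaperone CRYAB (4.69 ± 0.15) and HSPA12A (3.84 ± 0.17) were higher in OCM1, with 7 higher (25.9%) and 9 lower (33.3%) of 27.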
